A study of Homo sapiens with 6 samples.

Results

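Small RNAs made by RNA polymerase III were followed in extracellular vesicles (EV) and in the whole cells (WC) that released them: the Y RNAs, the vault RNAs, 7SL, 7SK and 5S ribosomal RNA, with RMRP and RPPH1, the RNA parts of the enzymes RNase MRP and RNase P. Members were chosen by gene symbol alone, pseudogenes of the Y and vault RNAs included, and 91 of the 68201 counted gene IDs matched (85 distinct symbols). They comprised 56 Y RNA genes and pseudogenes (17 of Y1, 16 of Y3 and 23 of Y4), 22 IDs of 5S genes, 6 of vault RNAs, 3 of 7SL, 2 of RMRP and 1 each of 7SK and RPPH1. RNY5 was not analysed here. A read was counted on 41 of the 91 IDs, and 50 had none.

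The EV group is RNA of vesicles that untreated wild-type (WT) K-562 cells released into medium with serum depleted of EVs, collected by size exclusion chromatography. The WC group is RNA of untreated WT K-562 cells, a human line from a chronic myeloid leukaemia and the only cells of the study. There were 3 EV and 3 WC libraries, called experimental replicates in the paper's methods, and p-values measure the spread between these libraries. Per the paper, the EV and WC libraries of a replicate came from the same specimen, a pairing that the main test did not use. RNA was copied into cDNA from poly(A), amplified by PCR and read on nanopores without fragmentation. A read stands for 1 cDNA, and PCR copies carried no molecular tags. Per the paper, most reads of either group did not span their full transcript, and the median alignment was shorter in EV.

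The gene counts summed to 560157 to 881338 in the EV libraries and to 2480560 to 3178211 in the WC libraries. The members took 0.0145% to 0.0377% of them in EV and 0.0199% to 0.0301% in WC libraries, 2694 reads in all. Levels are given as CPM, reads per 1000000 of a library size corrected by TMM, a normalization that assumes that most genes do not differ. A single read was worth 1.37 to 2.31 CPM in EV libraries but 0.255 to 0.344 CPM in WC libraries. A level is a share of its library, so more of an RNA and less of all others cannot be told apart. The erythroid marker genes summed to 449.9 to 508.3 CPM without TMM in EV and 411.9 to 485.8 in WC libraries, though single markers went opposite ways (HBG2 151.7 to 199.7 in EV and 10.4 to 17.7 in WC libraries, NFE2 43.0 to 80.6 in EV and 129.1 to 143.9 in WC libraries). The defining T cell gene CD3G, the B cell genes MS4A1 and CD79A and the fibroblast gene COL1A2 had no read. CD3D, another T cell gene, had 22.7 to 39.3 CPM without TMM in EV and 29.3 to 36.5 in WC libraries.

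These RNAs work as scaffolds of protein particles. Y RNAs are hairpins bound by the proteins Ro60 and La, with roles in RNA quality control and the start of DNA replication. Vault RNAs sit in the vault, a large hollow particle of the cytoplasm, 7SL is the backbone of the signal recognition particle that guides nascent proteins to the endoplasmic reticulum, 7SK keeps the elongation factor P-TEFb inactive, and 5S is a part of the large ribosomal subunit. RNA polymerase III ends its transcripts in a run of U, and these RNAs are not known for the long poly(A) tails of mRNAs. Their genes have left many copies in the human genome, some of them beside a run of A in the DNA. Per the paper, Y RNA, snRNA and rRNA reads showed stretches of poly(A), and unspecific binding of the primer was not excluded. Which of these gave the reads counted here was not tested. Levels count only RNA that was copied into cDNA and are no amounts of all RNA of a gene.

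The Y RNA genes lay together on chromosome 7 of hg38, outside other genes of GENCODE release 44: RNY1 (ENSG00000201098) at chr7:148987136-148987248 on the minus strand, RNY4 (ENSG00000252316) at chr7:148963315-148963410 on the plus strand, and RNY3 (ENSG00000202354) between them on the plus strand. RNY1 and RNY4 are shown, and capitals mark the runs of 6 or more bases that both share. RNY1 was identical to RNY3 at 72.57% and to RNY4 at 64.04% of aligned positions.
RNY1: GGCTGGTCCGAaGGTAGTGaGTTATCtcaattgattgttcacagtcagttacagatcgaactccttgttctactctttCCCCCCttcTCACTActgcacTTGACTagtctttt
RNY4: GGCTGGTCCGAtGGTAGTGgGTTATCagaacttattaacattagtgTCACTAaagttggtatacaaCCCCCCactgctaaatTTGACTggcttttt
RNY1P9 (ENSG00000255156, chr22:20475203-20475311, minus strand) is a Y1 pseudogene in an intron of KLHL22 on the same strand, and it is shown because its reads went the other way from those of RNY1. It was identical to RNY1 at 83.48% of aligned positions, and capitals mark the bases that differ.
RNY1P9: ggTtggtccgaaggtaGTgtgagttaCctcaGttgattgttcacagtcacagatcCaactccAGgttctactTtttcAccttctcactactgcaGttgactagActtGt
The DNA that follows each of these Y1 genes is given next, with runs of 4 or more A in capitals. The longest A run within 100 bases was 18 after RNY1P9 and 4 after RNY1.
RNY1P9 downstream: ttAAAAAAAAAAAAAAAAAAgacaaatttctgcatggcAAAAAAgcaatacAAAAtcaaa
RNY1 downstream: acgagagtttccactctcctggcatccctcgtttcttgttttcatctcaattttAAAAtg
The 5S genes RNA5S1 to RNA5S17 form a cluster on the minus strand of chromosome 1, each 119 bases long, with starts 2215 to 2242 bases apart and no other annotated gene over them. The sequence of RNA5S1 (ENSG00000199352) was that of 16 of the 17 genes, so their reads cannot be told apart, while RNA5S9 (ENSG00000201321) differed from it at 1 base.
The vault RNA genes VTRNA1-1 (ENSG00000199990), VTRNA1-2 (ENSG00000202111) and VTRNA1-3 (ENSG00000202515) lie on the plus strand of chromosome 5, at chr5:140711275-140711373, chr5:140718925-140719013 and chr5:140726158-140726246. A lncRNA of release 44 covers all 3, with an exon over VTRNA1-1 and introns over the other two. Capitals mark the runs of 12 or more bases that they share, and the part between these runs is where the 3 genes differ most.
VTRNA1-1: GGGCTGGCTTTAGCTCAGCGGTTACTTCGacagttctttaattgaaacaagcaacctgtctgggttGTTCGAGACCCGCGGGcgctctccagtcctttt
VTRNA1-2: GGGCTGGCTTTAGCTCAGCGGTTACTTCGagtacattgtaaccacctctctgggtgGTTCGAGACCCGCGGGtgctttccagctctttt
VTRNA1-3: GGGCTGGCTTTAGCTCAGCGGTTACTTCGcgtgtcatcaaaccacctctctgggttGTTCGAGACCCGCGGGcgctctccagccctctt
RN7SL1 (ENSG00000276168, on the plus strand of chromosome 14, in an intron of RPS29 on the other strand) and RN7SL3 (ENSG00000278771, on its minus strand, in no other gene) were identical at 97.66% of 299 positions, so the split of reads between them is uncertain.

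RNY1 and 5S RNA were higher in EVs, at 141 and 11.7 times their WC levels, and 7SL RNA was lower, at 0.334 times, whereas the vault RNAs did not pass the test. By the expression filter of edgeR, 11 of the 91 IDs could be tested. Of these, 7 rose (RNY1 and 6 copies of 5S), 2 fell (RN7SL1 and RN7SL3) and 2 vault RNAs did neither, at an adjusted p under 0.05 (quasi-likelihood F test of edgeR, p-values adjusted by Benjamini-Hochberg over all genes). Of all 8716 genes tested, 22.8% rose and 21.4% fell. That filter needs a minimum CPM, not only a read, in 3 libraries. RNY1 and the 6 copies of 5S reached it through the EV libraries and had to differ, and their count carries no support.

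A filter that does not look at the groups, a mean of 5 reads over the 6 libraries, kept 22 members. Here 16 rose (RNY1 and 15 copies of 5S), 3 fell (RN7SL1, RN7SL3 and RNY1P9) and the 3 vault RNAs did neither, against 18.6% that rose and 19.8% that fell among all 11347 genes. In 16 of the 22 members every EV library was above every WC library, as in 21.2% of all genes, and in 5 every EV library was below, as in 30.3%. The copies of 5S share their reads, so they stand for 1 RNA and not for 15 results. With 44 EV and 2 WC reads, RNY1 reached this filter too only through the EV libraries. RNY1P9, with 0 EV and 38 WC reads, reached it only through the WC libraries. The calls of RNY1 and RNY1P9 under this filter therefore carry no independent support. The median log2 fold change of all tested genes was -0.22 under this filter and -0.13 under that of edgeR.

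**Figure D1:**
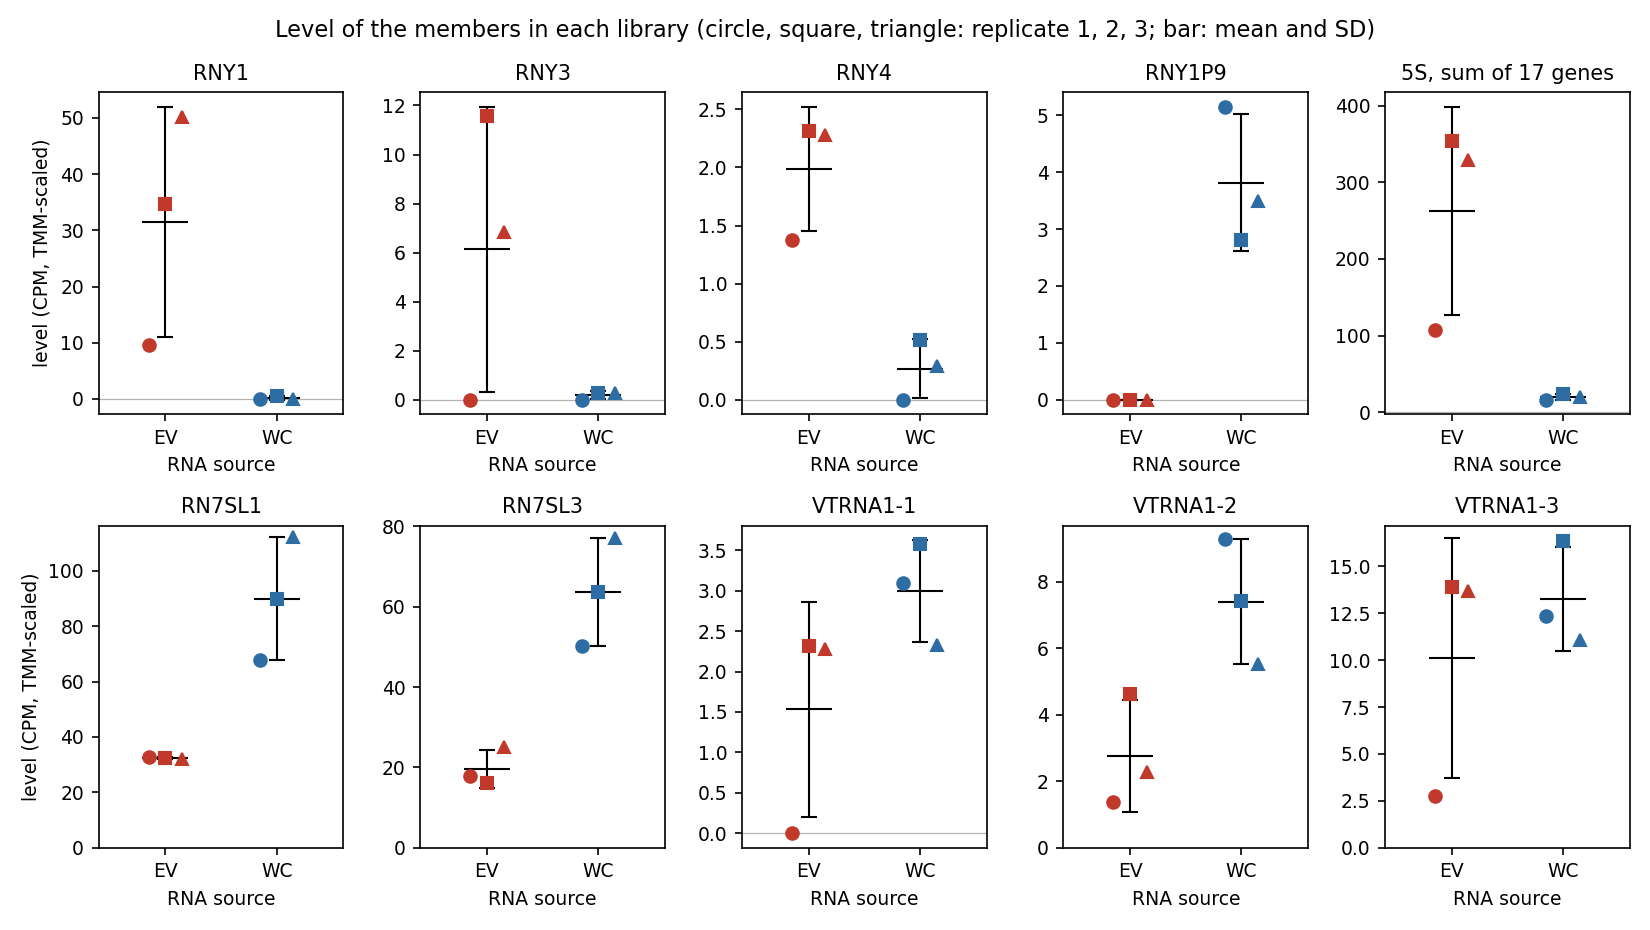
Level of each RNA in CPM (TMM-scaled) in the 3 EV libraries (left, red) and the 3 WC libraries (right, blue) of each panel. Symbols are replicates 1, 2 and 3, and black bars are the mean and SD. RNY1 and the 5S sum lie higher in every EV than in every WC library, RN7SL1 and RN7SL3 lie lower, and EV replicate 1 is the lowest EV library for RNY1, RNY3, RNY4, 5S and each vault RNA.

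RNY1 had 7, 15 and 22 reads in the EV libraries, against 0, 2 and 0 reads in the WC libraries, although the WC libraries were deeper. These were 9.60, 34.7 and 50.2 CPM in EV and 0, 0.511 and 0 CPM in WC libraries. The groups did not overlap, and EV replicate 1 stood well below the other two. Over the summed reads the EV level was 141 times the WC level, with an exact Clopper-Pearson 95% interval of 36.8 to 1203, which covers counting error only. The fitted log2 fold change was 6.77 with an SE of 0.78 (edgeR, adjusted p = 2.1e-06), and with 1 library left out it ran from 6.202 to 8.446. It was 7.38 without EV replicate 1 and 8.45 without WC replicate 2, which held both WC reads, and the value without that library is set against no read and is no bound. The size of the difference thus rests on 2 reads of 1 WC library. With the filter blind to group, which RNY1 also reached only through its EV reads, the log2 fold change was 6.78 with an SE of 0.70 (edgeR, adjusted p = 4.4e-09).

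RNY3 had 0, 5 and 3 reads in EV libraries, against 0, 1 and 1 in WC libraries. The groups overlapped, since EV replicate 1 had no read, which allows up to 4.12 CPM there (3 reads). The ratio of the summed levels was 25.7 (95% interval 5.12 to 248, counting error only). RNY3 passed neither filter, and only a fit without any filter gave it a test, at a log2 fold change of 4.14 (edgeR, adjusted p = 0.0010). RNY4 had 1, 1 and 1 reads in EV libraries and 0, 2 and 1 reads in WC libraries, with 1.37, 2.31 and 2.28 CPM in EV and 0, 0.511 and 0.291 CPM in WC libraries. Its groups did not overlap on this scale, but the 95% interval of its ratio of 6.42 ran from 0.860 to 47.9. A difference in RNY4 was therefore not detectable with so few counted reads. RNY1, RNY3 and RNY4 together stood at 39.6 ± 25.4 CPM in EV and 0.619 ± 0.639 CPM in WC libraries (SD, n = 3 each).

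Of the 53 pseudogenes of Y RNAs 15 had reads, and their sum was 2.74, 16.19 and 15.98 CPM in EV libraries, against 10.3, 8.93 and 6.69 CPM in WC libraries, with overlap. All 44 reads of the Y1 pseudogenes and all 10 of the Y4 pseudogenes came from WC libraries, and a count of 0 allows up to 4.12 to 6.94 CPM in an EV library (3 reads). The Y3 pseudogenes had 16 reads in EV and 34 in WC libraries, a ratio of levels of 3.02 (95% interval 1.56 to 5.62, counting error only), in the direction of RNY3 and with overlap. No test set the pseudogenes against their parent genes.

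RNY1P9 alone had 0, 0 and 0 reads in EV libraries, against 15, 11 and 12 reads in WC libraries, the opposite of RNY1. No EV read allows up to 4.12, 6.94 and 6.85 CPM in the 3 EV libraries (3 reads each), and the WC libraries had 5.15, 2.81 and 3.49 CPM. Against a floor of 3 reads over the EV group, its level was at least 1.97-fold lower in EV libraries. Its adjusted p was 0.014 with the filter blind to group (edgeR), which it reached through WC reads alone. Over the alternatives that tested it, the adjusted p lay between 0.0024 and 0.062. The highest value was that without EV replicate 1, the deepest EV library, where the call was lost. Without WC replicate 1 RNY1P9 missed the filter and was not tested, so the call was lost there too. KLHL22, the host gene of RNY1P9, had 10 reads in EV and 80 reads in WC libraries, not scaled for the greater depth of the WC libraries.

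RNY3P8 (ENSG00000223298, chr13:95310830-95310955, minus strand, in no other gene) was the other pseudogene with at least 10 reads. It had 2, 4 and 4 reads in EV libraries and 4, 10 and 5 reads in WC libraries. On the CPM scale every EV library was above every WC library, with a ratio of 3.38 (95% interval 1.40 to 7.64, counting error only), and the fit without a filter gave an adjusted p = 0.12 (edgeR). Its mean count was just under 5 reads, so it passed the filter blind to group only with a library left out. Its log2 fold change was then 2.25 without EV replicate 1 (edgeR, adjusted p = 0.016), but 1.46 to 1.57 without EV replicate 2, EV replicate 3 or WC replicate 1, where it missed the threshold (edgeR, adjusted p = 0.17, 0.17 and 0.074). It shares 67.46% of aligned positions with RNY3 and has an A run of 13 bases directly behind it. The remaining Y pseudogenes with reads had 1 to 6 each. Only RNY3P1 and RNY3P11 among them had EV reads, 3 in EV and 1 in WC libraries for RNY3P1 and 3 in EV and 2 in WC libraries for RNY3P11. They are 96.08% and 91.18% identical to RNY3, so their reads and those of RNY3 are uncertain. Among all 55 pseudogene members, vault copies included, 7 of the 16 with reads and 13 of the 39 without had an A run of at least 8 bases within 100 bases downstream, and 13 of the 16 and 29 of the 39 lay within another gene. Whether priming on such runs or reads of host transcripts gave their counts was not tested.

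5S rRNA was higher in EVs. The 17 genes of the cluster summed to 78, 153 and 144 reads in EV libraries, against 47, 90 and 68 reads in WC libraries. Their level was 107, 354 and 329 CPM in EV and 16.1, 23.0 and 19.8 CPM in WC libraries. The groups did not overlap, and EV replicate 1 was again the lowest of the EV libraries. The mean was 263 ± 136 CPM in EV and 19.6 ± 3.42 CPM in WC libraries (SD, n = 3 each), and the ratio of the summed levels was 11.7 (95% interval 9.88 to 14.0, counting error only). The log2 ratio of the group means was 3.74, and without EV replicate 1 it was 4.12.

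The 16 identical copies had 27 to 41 reads each, and in each of them every EV library was above every WC library. EV and WC reads were 27 and 10 for RNA5S1, 19 and 8 for RNA5S2, 20 and 12 for RNA5S3, 28 and 13 for RNA5S4, 23 and 12 for RNA5S5 and 20 and 13 for RNA5S6. They were 24 and 15 for RNA5S7, 27 and 13 for RNA5S8, 25 and 15 for RNA5S10, 27 and 8 for RNA5S11 and 21 and 9 for RNA5S12. For RNA5S13, RNA5S14, RNA5S15, RNA5S16 and RNA5S17 they were 19 and 14, 25 and 13, 22 and 16, 24 and 13 and 18 and 20. A spread of this kind over equal sequences cannot be assigned to single genes. The fitted log2 fold changes of the 15 copies with a mean of 5 reads ran from 2.50 in RNA5S17 to 4.35 in RNA5S11, with a median of 3.53 and adjusted p-values of at most 0.00043 (edgeR). The 5 second IDs of 5S genes, which release 44 does not hold, had no read.

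RNA5S9, with its single different base, had 7 reads (2, 3 and 1 in EV libraries, against 0, 1 and 0 in WC libraries). That is 1.21% of the 580 reads of 5S (exact Clopper-Pearson 95% interval 0.487% to 2.47%, counting error only), whereas an equal share over 17 genes would be 5.88%. The direction was that of the other copies, with a ratio of 38.5 and an interval of 4.67 to 1772.

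**Figure D2:**
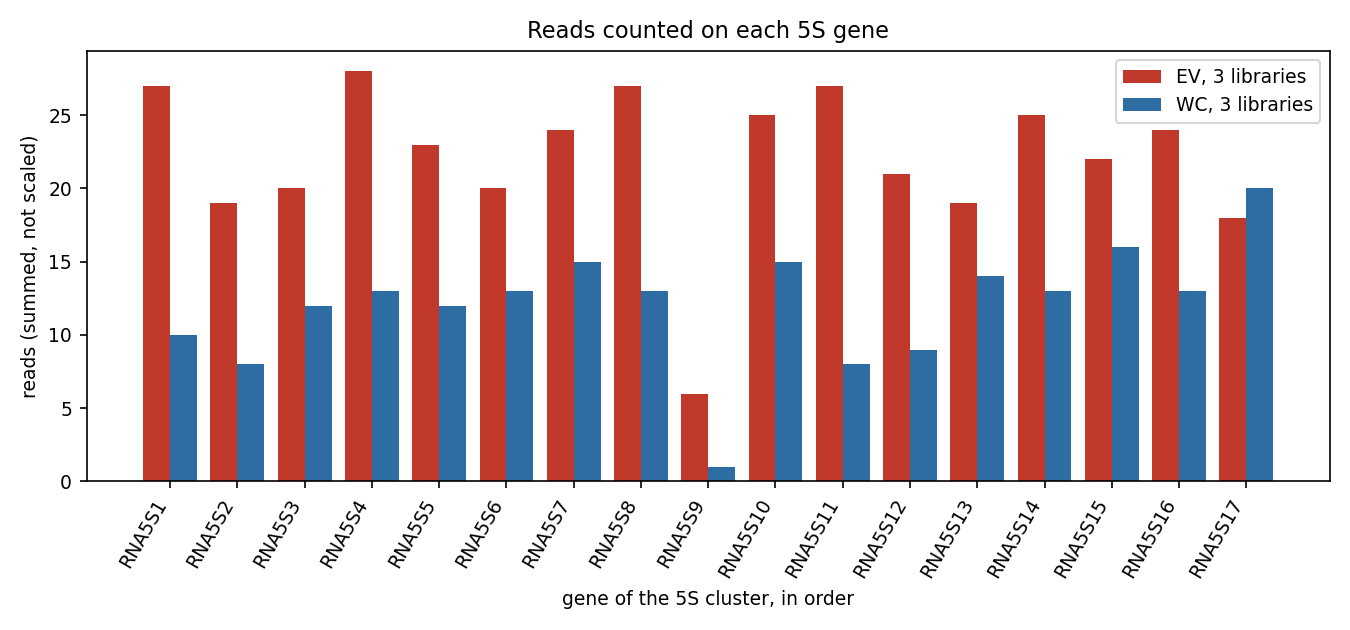
Reads counted on each 5S gene of the cluster, summed over the 3 EV libraries (left bars, red) and the 3 WC libraries (right bars, blue), not scaled for depth. The identical copies have 18 to 28 EV and 8 to 20 WC reads, and RNA5S9 has 6 and 1.

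7SL went the other way. RN7SL1 had 24, 14 and 14 reads in EV libraries, against 197, 352 and 386 reads in WC libraries, which is 32.9, 32.4 and 32.0 CPM in EV and 67.7, 89.9 and 112 CPM in WC libraries. The EV libraries were close to each other and all below the WC libraries. RN7SL1 fell by 1.47 on the log2 scale with an SE of 0.25 (edgeR, adjusted p = 2.8e-05). RN7SL3 had 13, 7 and 11 reads in EV libraries, against 146, 249 and 265 reads in WC libraries. Its level was 17.8, 16.2 and 25.1 CPM in EV and 50.2, 63.6 and 77.1 CPM in WC libraries, again without overlap, and it fell by 1.71 on the log2 scale with an SE of 0.28 (edgeR, adjusted p = 1.9e-05). EV replicate 1 did not stand apart for either gene, and without it the log2 fold changes were -1.52 and -1.65.

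Summed over both genes, 7SL stood at 52.1 ± 4.42 CPM in EV and 153.5 ± 35.8 CPM in WC libraries (SD, n = 3 each). The EV level was 0.334 times the WC level (95% interval 0.265 to 0.417, counting error only). RN7SL2 had no read in any library, although its sequence was identical to RN7SL1 at 98.33% of aligned positions. An exon of the lncRNA ENSG00000282885 covers it on the same strand.

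The vault RNAs were lower on average in EV libraries, but none passed the test. Their 6 genes summed to 14.4 ± 8.996 CPM in EV and 24.2 ± 4.36 CPM in WC libraries (SD, n = 3 each), with overlap, and the ratio of the summed levels was 0.514 (95% interval 0.308 to 0.810). That interval lies below 1 but covers counting error only, not the spread between libraries. VTRNA1-1 had 0, 1 and 1 reads in EV libraries, against 9, 14 and 8 reads in WC libraries, with a log2 fold change of -1.23 and an SE of 0.97 (edgeR, filter blind to group, adjusted p = 0.33). Its highest EV level was 2.31 CPM and its lowest WC level 2.33 CPM. VTRNA1-2 had 1, 2 and 1 reads in EV libraries, against 27, 29 and 19 in WC libraries. Its level was 1.37, 4.63 and 2.28 CPM in EV and 9.27, 7.40 and 5.53 CPM in WC libraries, without overlap, at a log2 fold change of -1.52 with an SE of 0.64 (edgeR, adjusted p = 0.056). VTRNA1-3, the vault RNA with the most reads, had 2, 6 and 6 in EV libraries and 36, 64 and 38 in WC libraries. Its groups overlapped at 2.74, 13.9 and 13.7 CPM in EV and 12.4, 16.3 and 11.1 CPM in WC libraries, and its log2 fold change was -0.59 with an SE of 0.45 (edgeR, adjusted p = 0.30).

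These calls hang on the scaling and on single libraries. With total counts in place of TMM, which moved the median log2 fold change of all genes to -0.78, VTRNA1-2 and VTRNA1-3 both passed at adjusted p = 0.0037 and 0.018 (edgeR). Without EV replicate 1 the log2 fold change of VTRNA1-3 was 0.013, that of VTRNA1-2 -1.11 and, with the filter blind to group, that of VTRNA1-1 -0.42. With the filter blind to group, VTRNA1-2 passed when WC replicate 3 was left out (edgeR, adjusted p = 0.043). The vault pseudogene VTRNA2-2P had 6 reads, all in WC libraries, and VTRNA3-1P had none.

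**Figure D3:**
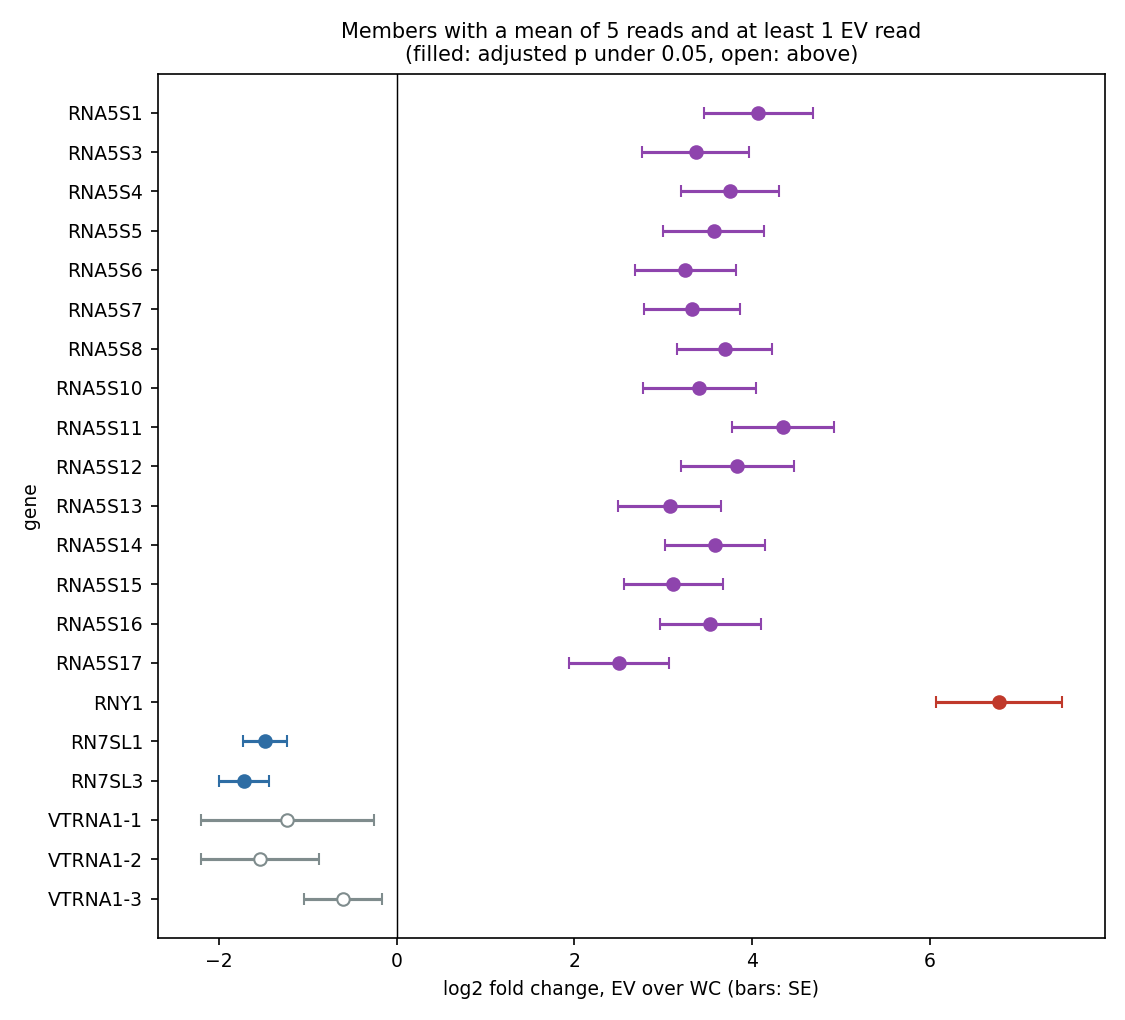
Log2 fold change, EV over WC, with its SE, of the 21 members with a mean of at least 5 reads and at least 1 EV read, by edgeR. The 15 copies of 5S and RNY1 lie right of 0, RN7SL1 and RN7SL3 left of 0 (filled points, adjusted p under 0.05), and the 3 vault RNAs have open points. RNY1P9 is not drawn, because its fitted value without EV reads is set by the model.

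RN7SK, RMRP, RPPH1 and VTRNA2-1 had no read in any of the 6 libraries. A count of 0 allows up to 4.12 to 6.94 CPM in an EV library and 0.766 to 1.03 CPM in a WC library (3 reads each). At RN7SK, VTRNA2-1 and RPPH1, as at RN7SL2, an exon of another annotated gene lies over the same bases on the same strand, and RMRP stands in the count table under 2 IDs. The overlapping genes at RN7SK (named 7SK), VTRNA2-1 (named Vault) and RPPH1 (ENSG00000259001) had no read either, and ENSG00000282885 at RN7SL2 had 1 in EV and 1 in WC libraries. Per the paper, reads from regions of several genes were left unassigned as ambiguous. A count of 0 covers assigned reads only, and how many reads of these genes were left unassigned was not tested.

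Copies outside the symbol rule were set beside the members, since reads of near-identical copies can be shared out in unknown ways. The 518 pseudogenes of 5S summed to 2.74, 6.94 and 6.85 CPM in EV libraries, against 27.5, 28.8 and 29.4 CPM in WC libraries, the reverse of the 5S cluster. The 756 Y RNA copies without a symbol had 27.4, 62.4 and 54.8 CPM in EV libraries, against 134.7, 144.7 and 174.5 CPM in WC libraries, the reverse of RNY1. In neither set of copies did the groups overlap, unlike the Y pseudogenes with a symbol, whose EV and WC levels did. Adding the pseudogenes to the 5S genes left the EV level above the WC level, at 269 ± 138 CPM in EV and 48.2 ± 4.18 CPM in WC libraries (SD, n = 3 each). For the Y RNAs this did not hold. Their copies without a symbol averaged 48.2 CPM in EV and 151 CPM in WC libraries, against 39.6 and 0.619 CPM for RNY1, RNY3 and RNY4 together. With these copies added, the mean EV level is below the mean WC level.

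For 7SL, genes and copies went the same way. The 695 pseudogenes of RN7SL had 90.9 ± 15.8 CPM in EV and 219 ± 39.0 CPM in WC libraries, and the 169 copies of SRP RNA without a symbol had 4.43 ± 2.28 CPM in EV and 20.5 ± 3.09 CPM in WC libraries (SD, n = 3 each). The 301 pseudogenes of RN7SK had 6.86, 20.8 and 11.4 CPM in EV libraries and 24.0, 21.7 and 24.4 CPM in WC libraries, and the highest EV and lowest WC level were less than the worth of 1 EV read apart. Among other short RNAs, the 2072 snRNA genes had a ratio of EV to WC level of 0.969 (95% interval 0.867 to 1.08, counting error only) and the 1009 snoRNA genes one of 0.706 (0.554 to 0.891). These sums were not tested against those of the members.

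**Figure D4:**
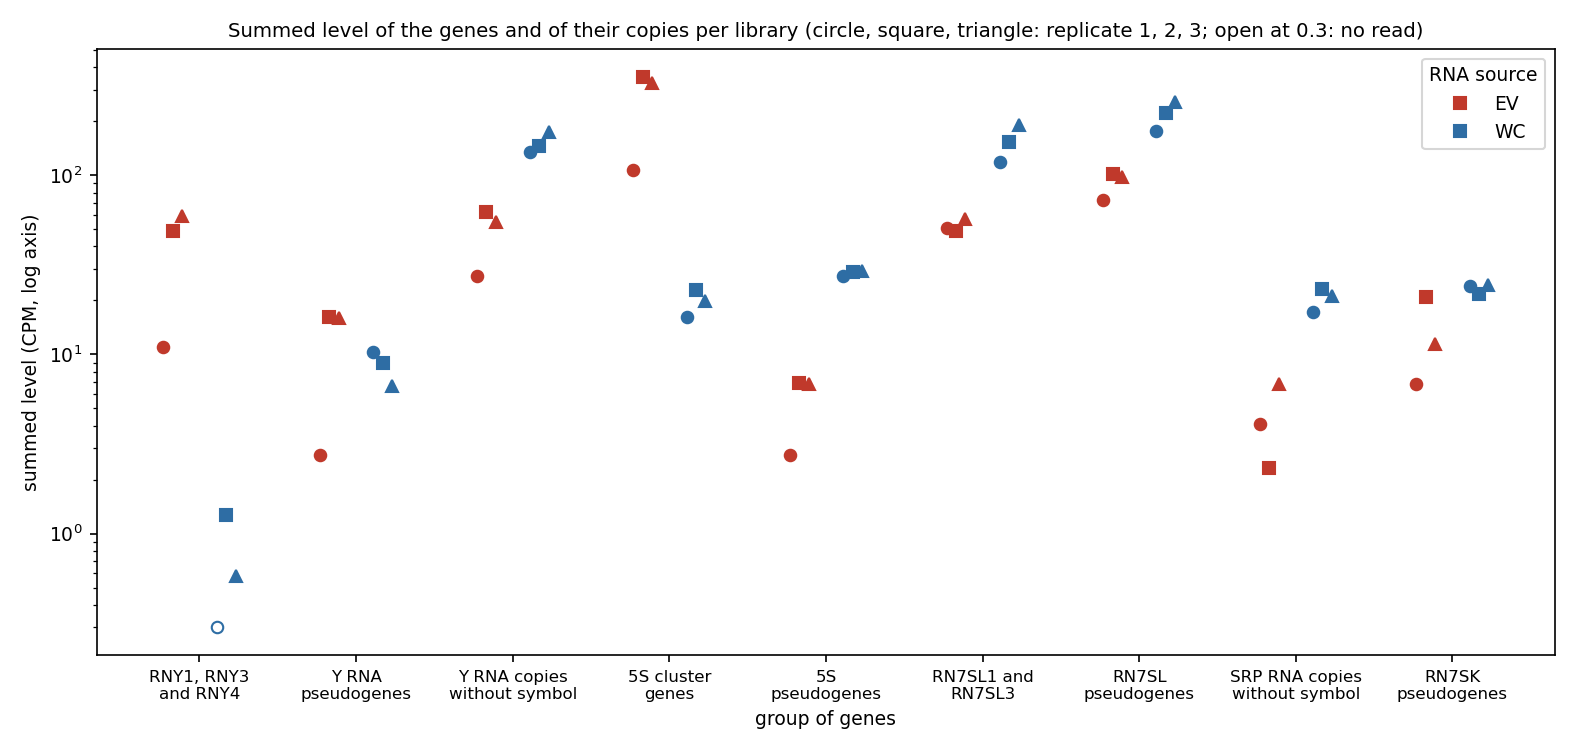
Summed level (CPM, TMM-scaled, logarithmic axis) of the genes and of their copies in the 3 EV (left, red) and 3 WC (right, blue) libraries. Symbols are replicates 1, 2 and 3, and the open symbol is a library without a read. The Y RNA genes and the 5S cluster are higher in EV libraries, while the 5S pseudogenes, the Y RNA copies without a symbol and all groups of 7SL and 7SK are lower.

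The authors' isoform models, made with FLAIR from the reads, give another view of the same genes. A model of 1 exon existed for 11 members, and 5 of the 11 were in the isoform table. The models of RMRP, RPPH1, VTRNA2-1 and RN7SL2 were of genes without a read in the gene counts. All 10 models whose gene ID release 44 holds covered that gene whole, and 6 were drawn on its strand. The model of RNY1 was drawn on the other strand, over the same bases as the gene. That of RNY4 was 122 bases long and reached 26 bases past the end of the gene.

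The isoform table gives only 1 authors' mean of normalized reads over all 6 libraries for each model, with no value per library. For RNY1 it was 177, while the authors' mean for the gene was 19.5. For RNY4 it was 99.3 against 1.41 for the gene. RN7SL2, without a read in the gene counts, had a model mean of 33.7. Only for RN7SL1 was the model mean the smaller one, 20.6 against 80.2 for the gene. Isoform reads were counted with FLAIR and gene reads with featureCounts, so the means need not share a scale. Gene and isoform means of these RNAs differed widely, and no direction between EV and WC was read from the isoforms.

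**Figure D5:**
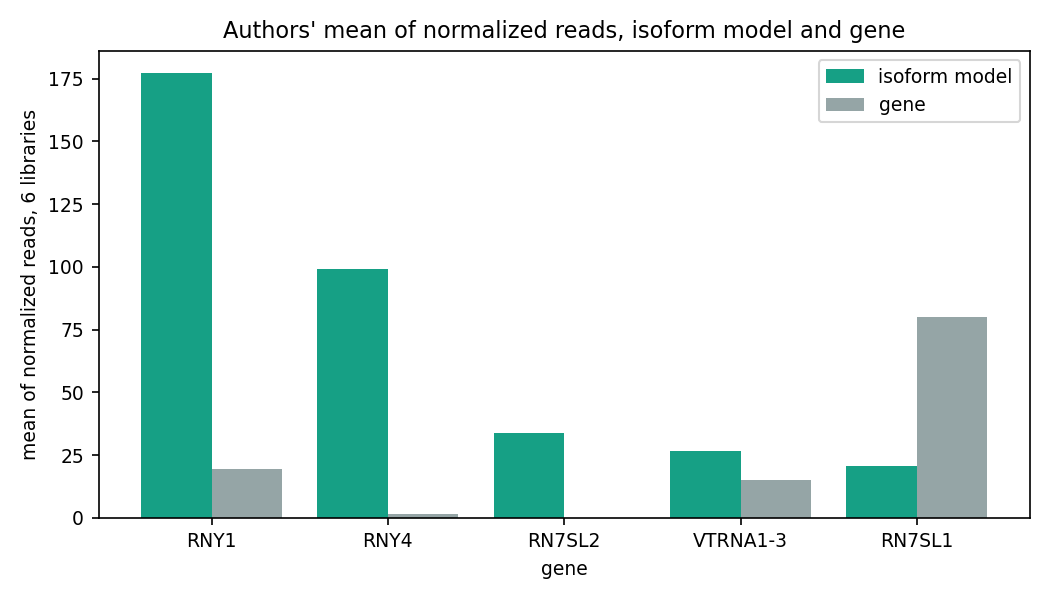
Authors' mean of normalized reads over the 6 libraries for the isoform model (left bars) and the gene (right bars) of the 5 members in the isoform table. The isoform bars of RNY1 and RNY4 stand at 177 and 99.3, while their genes stand at 19.5 and 1.41.

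mRNAs of proteins that bind or make these RNAs did not move as a block. Of 75 genes on the list 51 were tested, 10 rose and 8 fell (edgeR, adjusted p under 0.05), no larger shares than the 22.8% and 21.4% of all tested genes, and the median log2 fold change was 0.11 against -0.13 over all genes. RPL11, which joins 5S rRNA before it enters the ribosome, stood at 4778 ± 221 CPM in EV and 2026 ± 97.1 CPM in WC libraries (SD, n = 3 each). Its log2 fold change was 1.24 with an SE of 0.12 (edgeR, adjusted p = 5.1e-09). RPL5, its partner in the same complex, stood at 1516 ± 79.7 CPM in EV and 1129 ± 12.8 CPM in WC libraries (SD, n = 3 each). Its log2 fold change was 0.43 with an SE of 0.13 (edgeR, adjusted p = 0.0078). Of the 5 tested mRNAs of the 5S complex and its assembly 3 rose and 0 fell, against 22.8% and 21.4% of all tested genes. The third that rose was BRIX1, named after its values were seen. RPL5 and RPL11 are also mRNAs of ribosomal proteins, and the paper reports ribosomal functions among EV-enriched mRNAs. Whether these mRNAs moved apart from that class was not tested.

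Of the 6 tested mRNAs of the signal recognition particle, which holds 7SL, 1 rose and 1 fell, no larger shares than among all genes. SRP14, a protein of the Alu domain, rose at 423 ± 80.4 CPM in EV and 272 ± 26.8 CPM in WC libraries (SD, n = 3 each). Its log2 fold change was 0.63 with an SE of 0.17 (edgeR, adjusted p = 0.0032). SRP54, which binds signal peptides, fell at 16.5 ± 6.63 CPM in EV and 43.7 ± 2.33 CPM in WC libraries (SD, n = 3 each). Its log2 fold change was -1.33 with an SE of 0.29 (edgeR, adjusted p = 0.00049). The other 4 tested mRNAs of this particle did neither. PARP4, an enzyme of the vault, was its only tested mRNA and fell, at 4.12 ± 1.63 CPM in EV and 16.5 ± 2.29 CPM in WC libraries (SD, n = 3 each, edgeR, adjusted p = 0.0015).

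Of the 24 tested mRNAs of RNA polymerase III and its factors 4 rose and 2 fell. POLR3GL, a subunit of the polymerase, rose by a log2 fold change of 1.92 (adjusted p = 0.0038, edgeR), and ZNF143, an activator of its snRNA-type promoters, fell by 1.32 (adjusted p = 0.0023, edgeR). Among the 6 tested binders and 3′ end enzymes of Y RNAs 1 rose and 3 fell, and of 4 tested mRNAs of the 7SK particle 1 rose and 1 fell. Over all tested genes 22.8% rose and 21.4% fell, and lists this short were not tested as sets. None of the 5 tested mRNAs of RNase P and MRP passed the test of edgeR, and none of them had an unadjusted p under 0.05.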

How the data were processed

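RNA of K562 cells (WC) and of their vesicles (EV) was sequenced as nanopore PCR-cDNA in 3 libraries each. The deposited counts are the authors' raw reads per gene and library, mapped to hg38 with minimap2 and counted with featureCounts, whose treatment of strand and of reads with several positions is not given in the sources used here. The deposited means of normalized reads (a signal per gene and isoform) are the authors' counts divided by DESeq2 size factors. The deposited BED score of the isoform models was not interpreted. The authors' fold changes, statistics, p-values and TPM were not used.

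Of 68247 lines, 1 was kept for each of 46 IDs that stand on 2 lines. Genes were tested with edgeR 4.0.16 (R 4.3.3, TMM, quasi-likelihood, robust, common dispersion 0.0184) and DESeq2 1.42.0 as an alternative. TMM factors were 0.765 to 0.839 in EV and 1.20 to 1.31 in WC libraries. Ratios of summed reads have exact 95% intervals, and floors are 3 reads. The test was checked on simulated data. Coordinates and sequences came from GENCODE release 44 and hg38, which hold 85 of the 91 members, and some sequences are not reported here. Per the paper, each flow cell was loaded with 1 EV and 1 WC library of the same replicate specimen. Libraries of equal number were taken here as such a pair, which only the alternative with the replicate number as a block used. The correlations of same-number libraries about their group means were 0.0622, 0.0237 and 0.00445. Named were all members that are no pseudogenes, pseudogenes with at least 10 reads, and of the partner mRNAs the 3 lowest p in each direction and the 2 highest levels. Members and lists were chosen with earlier results of these data known. Alternatives were DESeq2, scaling by RLE or by total counts, a mean of 5 reads or no filter, the replicate number as a block, thinning of WC libraries to EV depth, and leaving out each library. Scripts used scipy 1.17.1, pandas 2.3.3, numpy 2.4.6, Biopython 1.88 and matplotlib 3.10.9 on Python 3.11.15.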

Additional observations from a re-analysis of the deposited data

Results flagged for a closer look

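Signals outside the gene counts stood out for 4 members, in the isoform table of the authors' own comparison of EV and WC, of which only the mean over all libraries was read here. The isoform models had an authors' mean of normalized reads of 177 for RNY1, 99.3 for RNY4, 33.7 for RN7SL2 and 26.7 for VTRNA1-3, all above the mean of their own genes. RN7SL2 was the one among them without any read in the gene counts. With 3 libraries in a group, single libraries were not tested as outliers.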

How the results depend on the processing

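The directions and calls of RNY1, of the 6 copies of 5S, and of RN7SL1 and RN7SL3 held wherever edgeR or DESeq2 could test them. For RNY1 and 5S this carries no support under the filter of edgeR, which they passed through the EV libraries. RNY1 passed the filter blind to group in the same way. Among the 11 members tested with that filter, changing 1 choice turned a call or direction only for vault RNAs. VTRNA1-2 and VTRNA1-3 passed with total counts at log2 fold changes of -2.16 and -1.23, as both also did with the filter blind to group, under which VTRNA1-2 passed without WC replicate 3 as well. The direction turned for VTRNA1-3, whose values without 1 library ran from -0.95 to 0.013, positive only without EV replicate 1.

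The number of members that rose, 7 as reported, depended on which were tested. It was 19 without a filter, 16 with a mean of 5 reads and 0 with WC libraries thinned to EV depth, where only 3 members passed the filter. It was 11 to 18 when 1 library was left out, where the filter needs its minimum CPM in fewer libraries. Members that fell numbered 4 with total counts, against 2, and 2 to 3 with 1 library left out. With the filter blind to group, alternatives chosen after seeing the data gave 16 that rose under DESeq2, total counts and the replicate block, and 13 to 18 with 1 library left out. Those that fell were 3, 5 and 3 under the same settings and 2 to 4 with 1 library left out. With the replicate block 7 rose and 2 fell, and the block changed no call of a member.

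Of the partner mRNAs 10 rose and 8 fell. With total counts 2 rose and 22 fell. Chosen after seeing the data, no filter gave 4 that rose, thinning 5, and DESeq2 4 that fell, and with 1 library left out 4 to 8 rose and 5 to 7 fell.

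Without pseudogenes the log2 ratio of the summed levels was 7.53 in place of 2.78 for Y1, 5.08 in place of 2.39 for Y3 and 2.90 in place of 0.65 for Y4. With its pseudogenes added it was 2.48 in place of 3.74 for 5S, and with total counts -2.22 in place of -1.56 for 7SL. Low counts limit RNY3, RNY4, RNA5S9, VTRNA1-1 and VTRNA1-2, each with fewer than 10 EV reads, and RNY1P9, which had no EV read.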
